A study of Mus musculus with 19 samples.

Results

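The livers compared here came from mice on the Western diet (WD) and mice on the normal diet (ND), all given saline, so that the diet was the only factor that differed by design. They were picked by the diet and treatment in their labels and make up 6 of the 19 liver libraries of the study, 3 ND saline and 3 WD saline, each from a different mouse. All 6 mice were C57BL/6JOlaHsd males, 4 weeks old at the start, that ate their diet for 4 months and received saline from an implanted micro-osmotic pump for 8 weeks. The ND drew 13.9% of its energy from fat, 62.9% from carbohydrate and 23.1% from protein. The WD drew 50.5% from fat, 38% from carbohydrate and 11.5% from protein, with trans fat at 12% and saturated fat at 50% of its fatty acids. It also contained cholesterol at 1.25%, sucrose at 20% and fructose at 10%, and its choline was lowered to 900 mg/kg. These components changed together, so their effects cannot be told apart. The other 13 livers were given AN1284, an indoline derivative, at 1 or 5 mg/kg/day on either diet, and enter only where stated.

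A fat-rich diet with added sugar and cholesterol and little choline is a standard way to induce steatohepatitis in mice, in which fat builds up in hepatocytes and is joined by cell injury, inflammation and scarring. Hepatocytes make most of the proteins of the plasma, clear drugs and steroids, and divide metabolic tasks by position, with urea and glucose production near the portal vein and glutamine synthesis and much drug metabolism near the central vein. In male mice many of these genes are further set by the pulsed release of growth hormone. The cells around them, Kupffer cells, endothelium, stellate cells and bile duct cells, are a small share of the liver mass and carry much of the inflammatory and fibrotic response. Fixed lists of matrix genes and of lipid droplet, fatty acid and triglyceride genes are given by their counts, and their members are not described except for Apob, Scd2 and Fabp4, which other lists hold too. Some other genes described also handle fatty acids.

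RNA of each liver was sequenced as 1 polyadenylated, strand-specific library, and the 6 saline libraries held 23326800 to 29638296 counted reads. Levels are given as normalized counts, the read counts divided by the size factor of each library. Differences are log2 fold changes, WD saline minus ND saline, of log2(normalized count + 1) from limma, which understate the change of genes with few counts. A gene passed at an adjusted p under 0.05, and "rose" and "fell" are used only of genes that did. Errors are SD over the 3 mice of a group (n = 3) for levels and SE for log2 fold changes. The mice were housed in groups, and which of them shared a cage is not given in the sources used here, so the p-values do not account for cages. They measure the spread between mice within a group, estimated by limma from the livers of all 6 groups of the study and from other genes. Replicates of a group correlated at 0.9827 to 0.9839 (ND saline) and 0.9847 to 0.9906 (WD saline) over the genes tested, with no library apart from its group, and all 14 hepatocyte markers were measured in every liver.

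More genes passed between the diets than did not. Of 14743 genes tested, 7820 passed (53%), 4136 of them higher on the WD (28.1%) and 3684 lower (25%). More than 2-fold changes numbered 2259 upward and 1180 downward, more than 8-fold changes 190 and 81. Of the 14743 genes, 4588 had every WD liver above every ND liver and 4332 every WD liver below, so lack of overlap was common. Genes named for the size of their change were taken only from those without overlap. List members named first had the smallest p. Lack of overlap describes these genes and is no separate support for them. Abundant genes fell more often than they rose: in the tenth of genes with the highest mean level, 721 of 1475 fell and 238 rose, with a median log2 fold change of -0.31. The balance rests on the scaling. The size factors were 0.7592 to 0.7908 in ND saline and 1.0304 to 1.2679 in WD saline, and scaling by library totals instead shifted the middle of all log2 fold changes from 0.01 to 0.44 and gave 7581 higher and 1350 lower genes. The 100 most abundant genes took 46.4 to 49.1% of the reads in ND saline and 40.4 to 40.9% in WD saline. In whole liver RNA, fewer cells of a type and less RNA per cell cannot be told apart, here and in every group of genes that follows. Every change below is relative to the median of all genes at 0.01, and where the balance of a gene group turned over under scaling by totals, as it did for 14 of the 59 groups, this is said beside it.

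**Figure D1:**
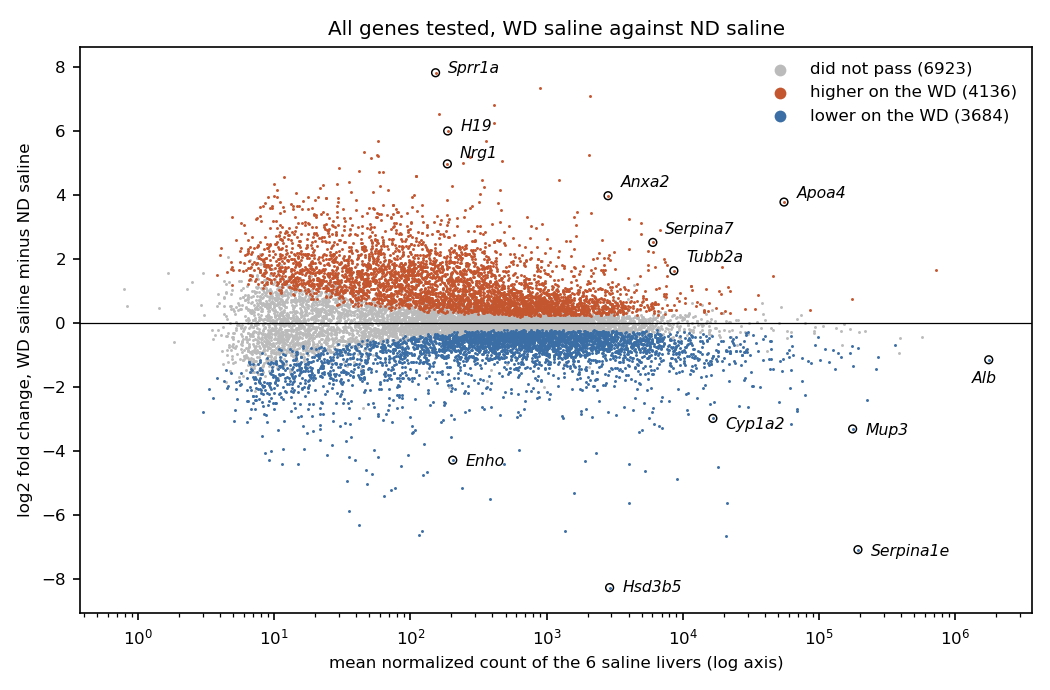
Log2 fold change between WD saline and ND saline against the mean normalized count of the 6 saline livers (log axis), 1 point per gene tested. Orange points are the 4136 genes higher on the WD, blue points the 3684 lower and grey points those that did not pass. Most of the points at the right edge, the most abundant genes, lie below 0, and circles mark genes described in the text.

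Several of the genes that rose most are not known as liver genes. Sprr1a, a precursor of the cornified envelope of skin, had 1.28, 0 and 0 in ND saline and 416, 283 and 218 in WD saline. Sdcbp2, a syntenin that binds membrane proteins, had 1.28, 1.32 and 6.32 in ND saline and 227, 309 and 420.4 in WD saline. Ephb2, a receptor kinase for ephrin-B ligands, had 12.8, 7.90 and 22.8 in ND saline and 379, 568 and 665 in WD saline. In these 3 genes no ND liver was above 22.8 and the WD livers lay far above it. Rad51b, a DNA repair protein, had 24.3, 22.4 and 34.1 in ND saline and 892, 940.0 and 927 in WD saline (log2 fold change 5.07, SE 0.38, adjusted p = 3.67e-08). Themis, best known for T cell development in the thymus, had 6.39, 13.2 and 21.5 in ND saline and 707, 539 and 861 in WD saline. Of 24 T and NK cell markers 2 rose and 2 fell, as given further on. Shc2, a signalling adaptor, had 7.67, 5.27 and 11.4 in ND saline and 169, 199 and 271 in WD saline. H19, an imprinted RNA of the fetal liver, had 5.11, 2.63 and 5.06 in ND saline and 153, 549.5 and 412 in WD saline (log2 fold change 6.00, SE 0.54, adjusted p = 1.52e-07). For H19 the WD livers differed several-fold among themselves and lay above every ND liver, as was required for naming it.

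Among the 12 largest falls by fold change of the genes that could be named were genes of several kinds. Selenbp2, a selenium-binding protein, had 17052, 25994 and 9510.4 in ND saline and 422, 1067 and 375 in WD saline (log2 fold change -4.87, SE 0.65, adjusted p = 2.94e-05). Adgrf1, an adhesion receptor, had 271, 212 and 285 in ND saline and 7.76, 9.89 and 10.3 in WD saline (log2 fold change -4.64, SE 0.50, adjusted p = 1.24e-06). Serpina4-ps1, a transcribed pseudogene of the serpin cluster, had 9207, 3227 and 11338 in ND saline and 107, 247 and 103 in WD saline. All 3 were lower in every WD liver than in any ND liver, as was required for naming them. Moxd1, a monooxygenase, was at 0 in every WD liver but ranged from 8.85 to 473 in the ND livers. Among the fits with 1 library left out it passed only without ND saline replicate 3. Its log2 fold change was -6.09, adjusted p = 6.90e-02 without ND saline replicate 1, -5.50, adjusted p = 7.73e-02 without ND saline replicate 2 and -6.63, adjusted p = 5.59e-02 without any 1 of the WD saline replicates.

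Ranked by the change in normalized counts, Apoa4, an apolipoprotein of chylomicrons and HDL, led the rises among the genes that could be named. Those leave out the matrix and lipid lists. Apoa4 had 7860.2, 5816 and 8829 in ND saline and 78988, 129255 and 102094 in WD saline (log2 fold change 3.78, SE 0.28, adjusted p = 2.76e-08). Aldh3a2, which oxidizes fatty aldehydes, had 7575, 9018 and 10206 in ND saline and 23032, 31065 and 36363 in WD saline. Psap, the precursor of the saposins of sphingolipid breakdown, had 12501, 13606 and 10852 in ND saline and 24921, 25270.2 and 24168 in WD saline. These 3 genes did not overlap between the diets, as was required for naming them. Lcn2, a siderophore-binding protein of the acute phase, had 865, 2114 and 827 in ND saline and 27608, 5121 and 4548 in WD saline. A single WD liver carried most of its rise. Its log2 fold change was 2.91, SE 1.03, adjusted p = 0.0285, and it did not pass without ND saline replicate 1 (2.71, adjusted p = 7.83e-02), ND saline replicate 3 (2.67, adjusted p = 7.49e-02) or WD saline replicate 1 (2.07, adjusted p = 1.36e-01).

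Plasma proteins were among the largest falls by count. Alb, serum albumin, had 2474105, 2418131 and 2410099 in ND saline and 1009981, 1278186 and 1032264 in WD saline (log2 fold change -1.15, SE 0.18, adjusted p = 4.05e-05). Ttr, the carrier of thyroid hormone and retinol-binding protein, had 308295, 206451 and 255708 in ND saline and 82045, 121708 and 102068 in WD saline. Apoa1, the main protein of HDL, had 459289.8, 312336 and 369743 in ND saline and 113540.5, 183057 and 129164 in WD saline. In all of these the WD livers lay below every ND liver, as was required for naming them. Serpina3k, a serine protease inhibitor, had 394464, 407127 and 326662 in ND saline and 67558, 92597 and 57897 in WD saline (log2 fold change -2.39, SE 0.20, adjusted p = 7.26e-08). Genes of the Serpina and Mup clusters have near-identical neighbours, so that reads may be shared between them and the values of single members are uncertain.

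**Figure D2:**
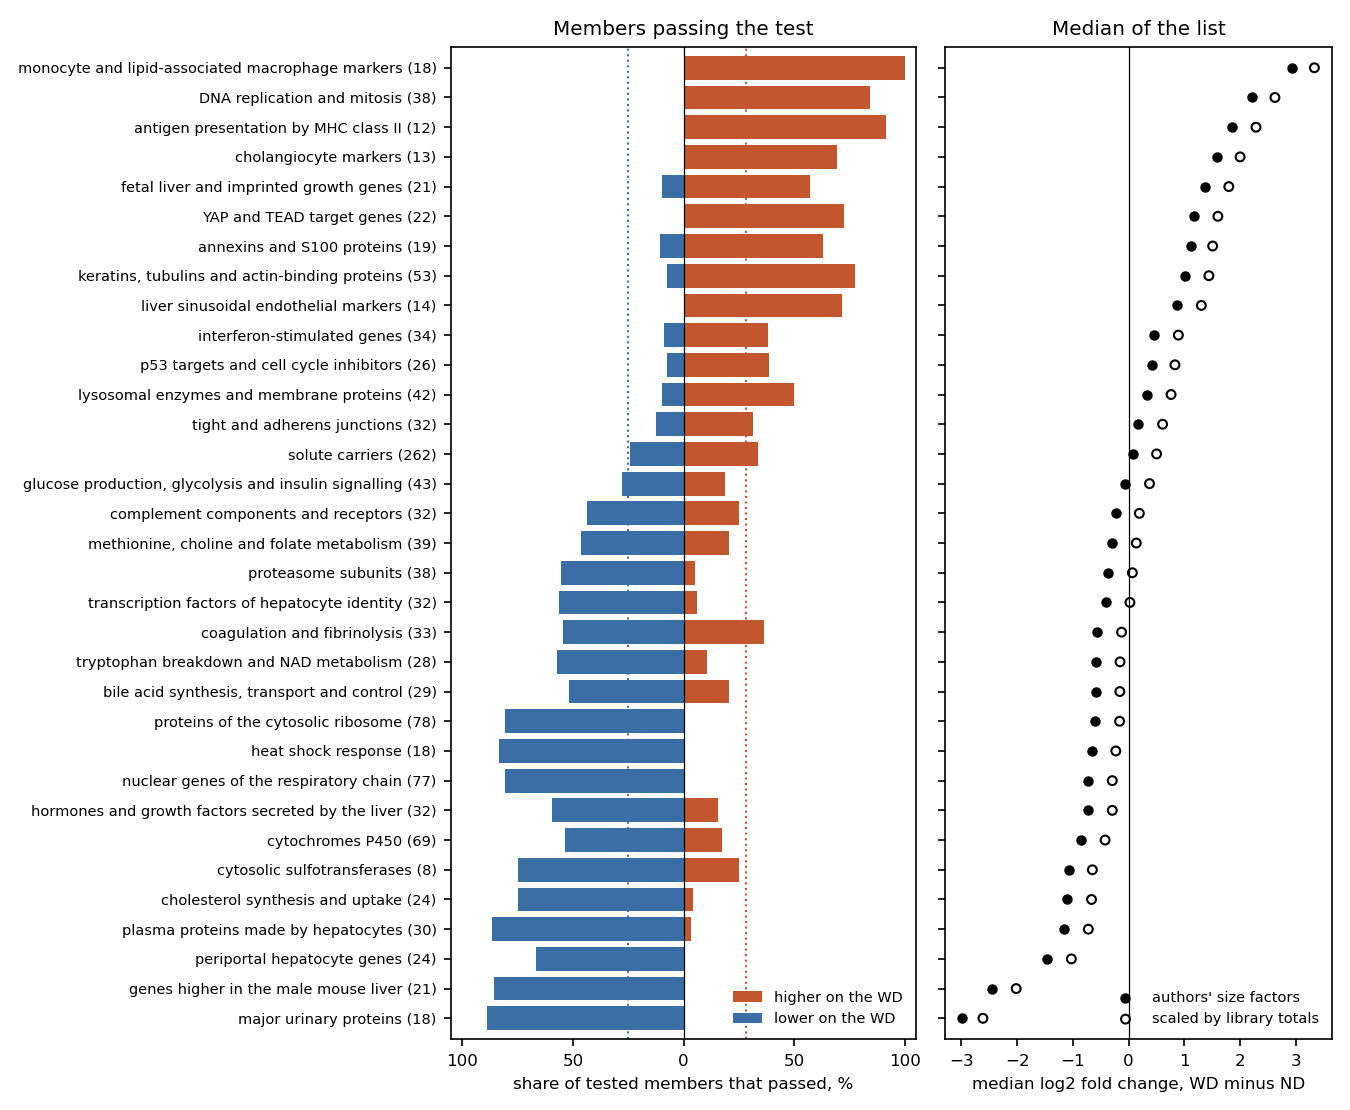
Left, share of the tested members of 33 gene groups that rose (orange, to the right) or fell (blue, to the left) on the WD, in percent, with the number tested in brackets and dotted lines at the shares over all genes (28.1 and 25%). Right, median log2 fold change of each group with the authors' size factors (filled) and with library totals (open). Macrophage, cell division and MHC class II genes stand at the top and male-biased and major urinary protein genes at the bottom with either scaling.

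Plasma proteins made by hepatocytes fell almost as a body. Of 30, 26 fell and 1 rose (median log2 fold change -1.16). The sum of their normalized counts was 5450775 to 6019158 in ND saline and 2205767 to 2656761 in WD saline. Ahsg, the mineral-binding fetuin-A, had 188881, 198261 and 188647 in ND saline and 64987, 82139.6 and 68789 in WD saline (log2 fold change -1.42, SE 0.11, adjusted p = 2.04e-08). Hpx, hemopexin, which binds free haem, did not pass, with 238477, 202493 and 109429 in ND saline and 205421, 136013 and 125528 in WD saline (log2 fold change -0.20, SE 0.30, adjusted p = 0.601). The major urinary proteins, pheromone carriers of male mice, had 16 of 18 members lower and none higher, with a median of -2.98. Mup20, the male-specific protein darcin, was among those that did not pass, with 304804, 132342 and 128462 in ND saline and 88925, 117277 and 119525 in WD saline (log2 fold change -0.69, SE 0.34, adjusted p = 0.102). One ND liver was more than 2-fold above the other ND livers in Mup20, and those lay next to the WD livers.

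Genes of coagulation and fibrinolysis moved both ways. Of 33 coagulation and fibrinolysis genes 18 fell and 12 rose (15 and 13 with scaling by totals). F7, the factor that starts clotting with tissue factor, had 2555, 2961 and 2223 in ND saline and 852, 831 and 613 in WD saline (log2 fold change -1.76, SE 0.13, adjusted p = 2.04e-08). F10, which it activates, had 14936, 14290.5 and 13976 in ND saline and 6081, 6758 and 5568 in WD saline. Serpinc1, antithrombin, had 82041, 69030.2 and 72038 in ND saline and 30695, 36339.6 and 34463 in WD saline. These proteases and their inhibitor were lower in every WD liver. Plau, the urokinase that activates plasminogen, had 19.2, 15.8 and 10.1 in ND saline and 184, 148 and 138 in WD saline (log2 fold change 3.33, SE 0.30, adjusted p = 1.38e-07). F5, the cofactor of F10, had a log2 fold change of 0.40, SE 0.17, adjusted p = 0.0547, and it passed without ND saline replicate 2 (0.53, adjusted p = 2.46e-02) or WD saline replicate 2 (0.51, adjusted p = 3.12e-02).

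Complement moved less evenly. Of 32 complement genes 14 fell and 8 rose, a balance that turned to 10 and 12 with scaling by totals. C8b, a chain of the membrane attack complex, had 11689, 12886 and 11378 in ND saline and 1519, 1564 and 927 in WD saline (log2 fold change -3.20, SE 0.18, adjusted p = 1.84e-09). C9, its pore-forming component, had 21221, 27644 and 19997 in ND saline and 10481, 11176 and 7097 in WD saline. Masp2, a protease of the lectin pathway, had 7348, 7499.5 and 8249.7 in ND saline and 4325, 4422 and 4142 in WD saline. The WD livers lay below the ND livers in all 3. C3, the central component, had 199257, 299358 and 203029 in ND saline and 271733, 177327 and 153912 in WD saline, with overlapping livers (log2 fold change -0.24, SE 0.26, adjusted p = 0.45).

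The acute phase proteins did not rise together. Of 24 that rise in systemic inflammation, 3 rose and 5 fell (5 and 3 with scaling by totals). The share that passed, 33.3%, was under the 53% of all genes tested. Cd14, the coreceptor for bacterial lipopolysaccharide, had 112, 71.1 and 56.9 in ND saline and 1120.0, 469 and 576 in WD saline (log2 fold change 3.11, SE 0.37, adjusted p = 4.13e-06). Crp, C-reactive protein, had 11864, 14068 and 12592 in ND saline and 7130.4, 7256 and 6832 in WD saline (log2 fold change -0.86, SE 0.15, adjusted p = 1.40e-04). Hp, haptoglobin, had 189147, 149689 and 91676 in ND saline and 168062, 110433 and 99831 in WD saline (log2 fold change -0.16, SE 0.31, adjusted p = 0.678). Cd14 was higher and Crp lower in every WD liver, and the livers overlapped in Hp. Only 1 of the acute phase genes rose when ND saline replicate 1, ND saline replicate 3 or WD saline replicate 1 was left out.

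Hepcidin and ferroportin moved in opposite directions. Hamp, hepcidin, the hormone that blocks iron export, had 6940.3, 6368 and 9193 in ND saline and 2267, 2625 and 1428 in WD saline (log2 fold change -1.86, SE 0.37, adjusted p = 5.50e-04). Slc40a1, ferroportin, the exporter that hepcidin degrades, had 1881, 1745 and 1314 in ND saline and 4013, 3088 and 3135 in WD saline (log2 fold change 1.06, SE 0.15, adjusted p = 2.30e-05). Slc40a1 did not pass against the ND livers given AN1284 (0.30, adjusted p = 6.91e-02). Tfr2, a sensor of transferrin iron, had 13026, 14593 and 11806 in ND saline and 8644, 7999.7 and 6681 in WD saline. Of 20 iron-handling genes in all, 4 rose and 7 fell, and with scaling by totals 11 rose and 4 fell. The share that passed, 55%, was near the 53% of all genes tested.

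Of 32 hormones and growth factors secreted by the liver, 19 fell and 5 rose (15 and 8 with scaling by totals). Agt, angiotensinogen, had 24898, 21528 and 21712 in ND saline and 9266, 9739.7 and 8917 in WD saline (log2 fold change -1.28, SE 0.11, adjusted p = 5.58e-08). Inhbb, the subunit of activin B, had 20.4, 26.3 and 27.8 in ND saline and 182, 147 and 192 in WD saline (log2 fold change 2.76, SE 0.24, adjusted p = 9.06e-08). Selenop, the selenium carrier of plasma, had 148090.3, 160516 and 157353 in ND saline and 144273, 146841 and 162352 in WD saline. Agt and Inhbb did not overlap between the diets, in opposite directions, and Selenop did, with a log2 fold change of -0.04, SE 0.14, adjusted p = 0.823 whose sign turned with scaling by totals (0.39, adjusted p = 2.20e-02).

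Genes that are higher in the male mouse liver fell. Of 21, 18 fell and none rose, with a median log2 fold change of -2.45, and 16 fell against the ND livers given AN1284. Cyp7b1, a steroid and oxysterol hydroxylase, had 7904, 8294 and 6253 in ND saline and 1083, 1292 and 1007 in WD saline (log2 fold change -2.73, SE 0.24, adjusted p = 1.31e-07). Elovl3, an elongase of very-long-chain fatty acids, had 29856, 31206 and 25187 in ND saline and 3684, 6236 and 6264 in WD saline. Mup21, a urinary protein, had 11030.1, 6020.4 and 9357 in ND saline and 741, 1008 and 717 in WD saline. The WD livers were several-fold below the ND livers in each of the 3. Cyp4a12b, an omega-hydroxylase, had 4050.2, 3513 and 4756 in ND saline and 2422, 2192 and 3234 in WD saline and did not pass (log2 fold change -0.66, SE 0.34, adjusted p = 0.113).

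Fewer of the genes that are higher in the female mouse liver could be tested. Of 22, 10 reached the level for testing, of which 3 rose and 2 fell, with a median log2 fold change of 0.76. Among these 10 the share passing was near the 53% of all genes tested. With scaling by totals 7 rose and 2 fell, and 5 rose without ND saline replicate 3 or against the ND livers given AN1284. Cyp2a4, a steroid hydroxylase with a near copy in Cyp2a5, had 20.4, 2.63 and 12.6 in ND saline and 193, 82.4 and 136 in WD saline (log2 fold change 3.68, SE 0.89, adjusted p = 2.58e-03). Abcd2, a peroxisomal fatty acid transporter, had 193, 116 and 316 in ND saline and 705, 785 and 1146 in WD saline. Cyp2c69, of a P450 family with many close copies, had 101, 289.8 and 334 in ND saline and 0.971, 1.65 and 1.58 in WD saline (log2 fold change -6.50, SE 0.72, adjusted p = 2.14e-06). Cyp2a4 and Abcd2 were higher and Cyp2c69 lower in every WD liver.

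Periportal genes fell, 16 of 24 with none rising, at a median log2 fold change of -1.46. Gls2, the glutaminase that supplies the urea cycle with ammonia, had 10416, 10053 and 10504 in ND saline and 1758, 2100.0 and 1241 in WD saline (log2 fold change -2.64, SE 0.17, adjusted p = 6.36e-09). Ass1, an enzyme of the cycle itself, had 121034, 131446 and 137811 in ND saline and 21112, 32894 and 29036 in WD saline. Arg1, the arginase that ends it, had 43165, 43824 and 43948 in ND saline and 11130.0, 14053 and 12999 in WD saline. The WD livers were several-fold below the ND livers in these genes, with no overlap. Agxt, which removes glyoxylate, had 6755, 6666 and 5498 in ND saline and 966, 1471 and 753 in WD saline. Fbp1, of gluconeogenesis, had 21629.6, 22645 and 20297 in ND saline and 16275, 19156 and 19809 in WD saline and did not pass (log2 fold change -0.23, SE 0.13, adjusted p = 0.153). With scaling by totals or without ND saline replicate 1 or 3, 1 to 3 members rose.

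Pericentral genes moved both ways. Of 24, 6 rose and 10 fell, and with scaling by totals 11 rose and 7 fell. Cyp1a2, which oxidizes caffeine and aromatic amines, had 32976, 28615 and 27059 in ND saline and 3181, 3634 and 4532 in WD saline (log2 fold change -2.98, SE 0.13, adjusted p = 7.16e-11), the smallest p of all genes tested. Cyp2c37 had 10246, 12225 and 10785 in ND saline and 1334, 1638 and 868 in WD saline. Glul, glutamine synthetase, found in the cells next to the central vein, had 25769, 31542 and 29138 in ND saline and 41898, 35606 and 39943 in WD saline (log2 fold change 0.44, SE 0.14, adjusted p = 0.0109). It was higher in every WD liver but did not pass without ND saline replicate 1 (0.37, adjusted p = 5.56e-02). Ccnd1, cyclin D1, a pericentral target of Wnt signalling and a cell cycle gene, had 413, 409.6 and 374 in ND saline and 1754, 2542 and 2868 in WD saline (log2 fold change 2.55, SE 0.19, adjusted p = 1.83e-08).

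Of 32 transcription factors of hepatocyte identity 18 fell and 2 rose, and with scaling by totals 9 fell and 9 rose. Hnf4a, the central nuclear receptor of the hepatocyte, had 21545, 23392 and 26222 in ND saline and 12841, 12705 and 12553 in WD saline (log2 fold change -0.90, SE 0.11, adjusted p = 2.83e-06). Klf15, which drives amino acid breakdown, had 6410.0, 8552 and 7797 in ND saline and 1683, 2283 and 2189.5 in WD saline (log2 fold change -1.89, SE 0.18, adjusted p = 2.46e-07). Foxa3, a pioneer factor, had 1626, 1275 and 1850.0 in ND saline and 595, 728 and 725 in WD saline. The 3 factors were lower in every WD liver. Rxra, the shared partner of many nuclear receptors, had a log2 fold change of -0.22, SE 0.10, adjusted p = 0.0644, and it passed without ND saline replicate 1 (-0.31, adjusted p = 1.66e-02).

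**Figure D3:**
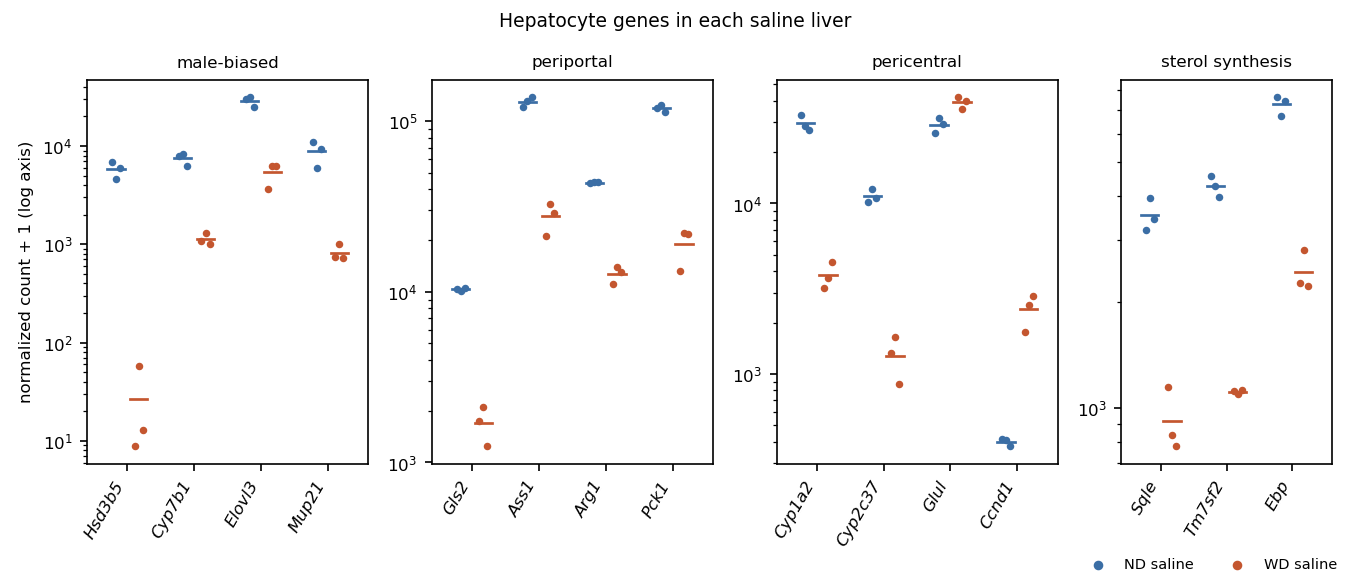
Normalized count + 1 (log axis) of 15 hepatocyte genes in each ND saline (blue) and WD saline (orange) liver, 1 point per mouse, with lines at the group means, for male-biased, periportal, pericentral and sterol synthesis genes. The WD livers lie below the ND livers in 13 of the 15, and above them for Glul and Ccnd1. Genes of the plot were chosen after their values were seen.

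Of 69 cytochromes P450, 37 fell and 12 rose. Cyp2c54, an epoxygenase of the Cyp2c cluster, had 7296, 8705 and 6897 in ND saline and 322, 581 and 250.02 in WD saline (log2 fold change -4.39, SE 0.24, adjusted p = 1.84e-09). Cyp2c29, of the same cluster, had 48662, 55882 and 51695 in ND saline and 7806, 10330.4 and 7484 in WD saline. Cyp3a11, the main mouse counterpart of the human drug-metabolizing CYP3A enzymes, had 116450.2, 92772 and 91014 in ND saline and 51224, 87626 and 113888 in WD saline (log2 fold change -0.31, SE 0.29, adjusted p = 0.377). Cyp2c54 and Cyp2c29 were lower in every WD liver, and the livers overlapped in Cyp3a11. Cyp4a14, an omega-hydroxylase and target of PPAR-alpha, had 336, 811 and 4474 in ND saline and 6735, 4565 and 12886 in WD saline (log2 fold change 2.78, SE 0.97, adjusted p = 0.0266). Its ND livers differed more than 10-fold, and it did not pass without ND saline replicate 1 (1.95, adjusted p = 1.28e-01) or 2 (2.58, adjusted p = 6.53e-02) or WD saline replicate 1 (2.84, adjusted p = 5.62e-02) or 3 (2.37, adjusted p = 9.38e-02).

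Enzymes that conjugate drugs and hormones mostly fell, with exceptions in each family. Of 8 cytosolic sulfotransferases 6 fell and 2 rose. Sult2a8, which sulfates bile acids in the mouse, had 18278, 21759.7 and 17041 in ND saline and 1892, 3884 and 2600.4 in WD saline (log2 fold change -2.82, SE 0.20, adjusted p = 1.83e-08). Sult1a1, which sulfates phenols, had 8597, 7688 and 9379 in ND saline and 2096, 3187 and 2494 in WD saline. Of 22 glutathione S-transferases 11 fell and 5 rose (6 and 6 with scaling by totals), and 3 rose without ND saline replicate 2 or 3 or WD saline replicate 2 or 3. Gstm3 had 2143, 1707 and 2377 in ND saline and 7926, 7761 and 14627 in WD saline (log2 fold change 2.23, SE 0.24, adjusted p = 1.65e-06). Gsta3 had 59271, 51329.8 and 50266 in ND saline and 19252, 26873 and 26259 in WD saline. These transferases did not overlap between the diets, Gstm3 being higher and Gsta3 lower on the WD. Of 17 UDP-glucuronosyltransferases 9 fell and 1 rose (4 and 4 with scaling by totals). Their share passing, 58.8%, was near the 53% of all genes tested. Ugt2b1 had 21946, 25024 and 20431 in ND saline and 5864, 8466 and 7478 in WD saline (log2 fold change -1.64, SE 0.19, adjusted p = 2.09e-06). The riser, Ugt2b35, had a log2 fold change of 0.44, SE 0.15, adjusted p = 0.0177 and did not pass without ND saline replicate 3 (0.33, adjusted p = 9.92e-02) or WD saline replicate 1 (0.42, adjusted p = 5.33e-02) or 3 (0.37, adjusted p = 7.85e-02). Members of the family that rose numbered 3 without ND saline replicate 2 and 2 without WD saline replicate 2.

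Membrane transporters did not fall as a class. Of 262 solute carriers 88 rose and 64 fell (138 and 27 with scaling by totals), with a median of 0.07, near that of all genes. Their share passing, 58%, was near the 53% of all genes tested. Slco2a1, the prostaglandin transporter, had 3715, 3893 and 3809 in ND saline and 505, 559 and 429 in WD saline (log2 fold change -2.94, SE 0.18, adjusted p = 4.37e-09). Slc29a1, a nucleoside transporter, had 5564, 7183 and 6609.6 in ND saline and 1814, 2146 and 1821 in WD saline. Slc22a30, of the organic anion transporters, had 3606, 3531 and 3336 in ND saline and 842, 1124 and 1101 in WD saline. The 4 solute carriers with the smallest p were all lower on the WD, the fourth being Slc22a28 at 352 ± 69.3 to 47.2 ± 8.75.

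Enzymes of the methionine cycle, which makes and spends methyl groups, and of cysteine synthesis were the members with the smallest p in a list of 39 genes that was divided. Gnmt, which spends methyl groups on glycine, had 40533, 45635 and 46504 in ND saline and 6129.8, 9712 and 6674 in WD saline (log2 fold change -2.59, SE 0.21, adjusted p = 4.52e-08). Ahcy, which clears the product of methylation, had 22695, 27002 and 23518 in ND saline and 7043, 9208 and 7403 in WD saline. Cth, which makes cysteine from cystathionine, had 11086, 14551 and 9459.9 in ND saline and 1662, 2479 and 2324 in WD saline (log2 fold change -2.44, SE 0.17, adjusted p = 1.19e-08). All 3 were lower in every WD liver. Chdh, which oxidizes choline on the path to betaine, went the other way with 4285, 5286 and 5556 in ND saline and 7479.8, 7225 and 7934 in WD saline (log2 fold change 0.59, SE 0.10, adjusted p = 7.04e-05). Of the 39 genes of methionine, choline and folate metabolism 18 fell and 8 rose, and 14 fell and 16 rose with scaling by totals.

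Both ends of the path from pyruvate to phosphoenolpyruvate changed, in opposite directions. Pck1, the committed enzyme of gluconeogenesis, had 119680.1, 124876 and 113847 in ND saline and 13290.3, 22103 and 21916 in WD saline (log2 fold change -2.68, SE 0.23, adjusted p = 8.39e-08). Pcx, the pyruvate carboxylase that precedes it, had 11019.9, 14755 and 14159 in ND saline and 24148, 26078 and 24939 in WD saline (log2 fold change 0.92, SE 0.13, adjusted p = 1.23e-05). Hk2, a hexokinase that adult hepatocytes hardly use, had 54.9, 26.3 and 41.7 in ND saline and 348, 346 and 303 in WD saline. Neither of the enzymes nor Hk2 overlapped between the diets. Of 43 genes of glucose production, glycolysis and insulin signalling 12 fell and 8 rose, and 4 fell and 21 rose with scaling by totals. The share that passed, 46.5%, was under the 53% of all genes tested.

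Of 28 genes of tryptophan breakdown and NAD metabolism 16 fell and 3 rose (11 and 8 with scaling by totals). Tdo2, the first enzyme of tryptophan breakdown in the liver, had 34197, 42433 and 37448 in ND saline and 12485, 16602 and 17042 in WD saline. Acmsd, which diverts the pathway away from NAD, had 954, 1239 and 1051 in ND saline and 142, 185 and 148 in WD saline (log2 fold change -2.77, SE 0.21, adjusted p = 2.04e-08). Nadk, which phosphorylates NAD to NADP, had 4810.4, 5798 and 5092 in ND saline and 7279.9, 8048 and 8510.2 in WD saline (log2 fold change 0.60, SE 0.10, adjusted p = 9.48e-05). None of the 3 overlapped between the diets, and only Nadk was higher on the WD. Of 17 genes of purine and pyrimidine breakdown 8 fell and 4 rose (5 and 7 with scaling by totals). Upp2, a uridine phosphorylase, had 2661, 5756 and 4590.2 in ND saline and 142, 352 and 293 in WD saline (log2 fold change -4.07, SE 0.35, adjusted p = 1.88e-07). Nt5e, the ectoenzyme that makes adenosine, had 149, 191 and 223 in ND saline and 490.1, 436 and 517 in WD saline. Of 28 retinoid genes 13 fell and 6 rose (6 and 11 with scaling by totals). Rdh16f2, a retinol dehydrogenase, fell from 2326 ± 610.5 to 298 ± 98.6 and Rdh9, of the same family, rose from 88.3 ± 11.8 to 361 ± 90.9.

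Genes of cholesterol synthesis and uptake fell, 18 of 24 with 1 rising (15 and 3 with scaling by totals), at a median of -1.10. Fdft1, squalene synthase, had 4141, 4014 and 4633 in ND saline and 1347, 1605 and 1630.3 in WD saline. Tm7sf2, a sterol reductase, had 4556, 4271 and 3973 in ND saline and 1115, 1097 and 1128 in WD saline (log2 fold change -1.94, SE 0.17, adjusted p = 1.38e-07). Ebp, a sterol isomerase, had 7602, 6746 and 7452 in ND saline and 2263, 2804 and 2225 in WD saline. These steps were lower in every WD liver. Sc5d, a desaturase late in the pathway, had a log2 fold change of -0.36, SE 0.16, adjusted p = 0.0621 and did not pass. Of 18 LXR targets and sterol export genes 7 rose and 3 fell (12 and 2 with scaling by totals), with 5 falling when ND saline replicate 2 was left out. In this list 55.6% passed, near the 53% of all genes tested. Abcg1, which exports cholesterol from macrophages, had 141, 119.9 and 98.6 in ND saline and 953, 640.1 and 524 in WD saline (log2 fold change 2.52, SE 0.32, adjusted p = 7.80e-06). Lcat, which esterifies the cholesterol of HDL, had 12310.3, 12698 and 12333 in ND saline and 5648, 6672 and 5618 in WD saline.

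Bile acid genes moved both ways. Slc10a1, the uptake carrier for conjugated bile acids, had 15235, 15124 and 20272 in ND saline and 5152, 6843 and 6319.9 in WD saline (log2 fold change -1.46, SE 0.15, adjusted p = 5.92e-07). Cyp27a1, of the alternative synthesis pathway, had 15337, 17915 and 16102 in ND saline and 7346, 8845 and 8014 in WD saline. Abcc4, an export pump on the blood side of the hepatocyte, had 39.6, 54.0 and 40.5 in ND saline and 477, 202 and 515 in WD saline (log2 fold change 3.03, SE 0.35, adjusted p = 2.43e-06). Abcc4 was higher and the other 2 lower in every WD liver. Slco1b2, another uptake carrier, did not pass (log2 fold change 0.03, SE 0.18, adjusted p = 0.911). Of all 29 genes of bile acid synthesis, transport and control 15 fell and 6 rose (8 and 9 with scaling by totals). Peroxisomal proteins were divided, with 15 of 46 lower and 11 higher (9 and 25 with scaling by totals, and 7 higher without ND saline replicate 1). Their share passing, 56.5%, was near the 53% of all genes tested. Nudt7, which cleaves coenzyme A, had 19045, 17219.7 and 16166 in ND saline and 3514, 4306 and 3617 in WD saline (log2 fold change -2.20, SE 0.19, adjusted p = 7.49e-08). Pipox, which oxidizes pipecolate and sarcosine, had 8049, 7474 and 8234 in ND saline and 2263, 3040.0 and 2708 in WD saline.

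Transcripts of the respiratory chain were lower by a small amount. None of its 77 nuclear genes rose and 62 fell, with a median of -0.73. Scaling by totals left 26 lower and 4 higher, and against the ND livers given AN1284 38 were lower and 1 higher. Atp5h, a subunit of ATP synthase, had 6364, 4209 and 6328 in ND saline and 2156, 2823 and 2490.0 in WD saline (log2 fold change -1.16, SE 0.17, adjusted p = 1.99e-05). Uqcrb, of complex III, had 4773, 3306 and 4791 in ND saline and 1681, 2250.0 and 2343 in WD saline. Ndufb10, of complex I, had 4035, 2867 and 4456 in ND saline and 1453, 1901 and 1687 in WD saline. The WD livers lay below the ND livers in the 3 genes. Atp5b, the catalytic subunit of ATP synthase, had a log2 fold change of -0.10, SE 0.14, adjusted p = 0.555, which turned with scaling by totals (0.33, adjusted p = 3.05e-02).

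Of 12 proteins encoded by mitochondrial DNA 7 fell and none rose. The share of these genes passing, 58.3%, was near the 53% of all genes tested. Among the 7, means in ND saline ranged from 78.7 to 451553, so that the values of the low members are uncertain. The cause of this range was not tested. The number falling was 2 without ND saline replicate 3, 1 without WD saline replicate 1, 1 with scaling by totals and 0 of 12 against the ND livers given AN1284. mt-Nd4 had 224657, 156466 and 286197 in ND saline and 102493, 104472 and 138181 in WD saline (log2 fold change -0.92, SE 0.22, adjusted p = 2.02e-03). mt-Nd2 had 345110.0, 269223 and 496659 in ND saline and 151120.1, 160904 and 213684 in WD saline (log2 fold change -1.05, SE 0.34, adjusted p = 0.0154), and did not pass without ND saline replicate 3 (-0.82, adjusted p = 7.96e-02) or WD saline replicate 1 (-0.95, adjusted p = 5.61e-02). ND saline replicate 3 was the highest of the 6 livers in both, and mitochondrial reads took 5.11 to 8.45% of all reads in ND saline and 4.67 to 6.36% in WD saline.

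Genes of protein synthesis fell slightly. Of 78 proteins of the cytosolic ribosome none rose and 63 fell (1 and 14 with scaling by totals), with a median of -0.59. Rpl7a had 11152, 7846 and 10225 in ND saline and 5419, 5923 and 5172 in WD saline (log2 fold change -0.81, SE 0.12, adjusted p = 3.72e-05). Ribosomal protein genes have many processed copies in the genome, so that the values of single members are uncertain. Of 38 proteasome subunits 21 fell and 2 rose (1 and 9 with scaling by totals), and 1 rose without ND saline replicate 2 or 3 or WD saline replicate 2 or 3. Psma4, of the core, had 3943, 2945 and 3469 in ND saline and 2018, 2315 and 2226 in WD saline (log2 fold change -0.65, SE 0.11, adjusted p = 9.90e-05). Psmd8, of the regulatory particle, had 3038, 2923 and 3526 in ND saline and 4557, 5142 and 5309.6 in WD saline (log2 fold change 0.66, SE 0.11, adjusted p = 8.30e-05). The 2 subunits moved apart, without overlap between the diets.

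Of 30 genes of the endoplasmic reticulum stress response 12 fell and 4 rose (1 and 8 with scaling by totals). The share that passed, 53.3%, was near the 53% of all genes tested. Herpud1, which aids the removal of misfolded proteins, had 19049, 21068 and 21619.5 in ND saline and 5838, 8809.5 and 9977 in WD saline (log2 fold change -1.36, SE 0.17, adjusted p = 6.14e-06), and did not pass against the ND livers given AN1284 (-0.16, adjusted p = 4.17e-01). Atf3, a stress-induced factor, had 46.0, 22.4 and 18.97 in ND saline and 283, 217 and 206 in WD saline (log2 fold change 3.06, SE 0.54, adjusted p = 1.84e-04). Trib3, a pseudokinase of the same response, had 67.7, 84.3 and 60.7 in ND saline and 169, 192 and 227 in WD saline. The risers, Atf3 and Trib3 among them, were higher in every WD liver. Hspa5, the main chaperone of the compartment, had 36212, 36079 and 28699.5 in ND saline and 25849.9, 26612 and 26590.5 in WD saline and did not pass (log2 fold change -0.35, SE 0.18, adjusted p = 0.112).

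Heat shock genes were lower on the WD, in a comparison where the ND saline livers themselves stood apart. Of 18, 15 fell and none rose (7 and 0 with scaling by totals), and for all 15 the means of both ND AN1284 groups also lay below the mean of ND saline. Hspa8, the constitutive HSP70, had 38269.9, 34968 and 36661 in ND saline and 15788, 19593 and 19709 in WD saline (log2 fold change -1.003, SE 0.12, adjusted p = 3.13e-06). Stip1, which joins HSP70 to HSP90, had 3875, 3932 and 4078 in ND saline and 1862, 2285 and 2123 in WD saline. Fkbp4, a cochaperone of steroid receptors, had 8051, 7463 and 7219 in ND saline and 3192, 4314 and 3606 in WD saline. The ND saline livers were about 2-fold above the WD saline livers in these, without overlap. Against the ND livers given AN1284 6 of the 18 rose and 4 fell, and the log2 fold change of Hspa8 was 0.05, adjusted p = 7.16e-01 there.

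Heat shock genes are switched on by the factor HSF1, which binds inverted repeats of GAA. Promoter windows of RefSeq (GRCm38.p6, from 250 bases before to 50 after the start) were found for 14 of the 18 genes. Of their 19 windows 11 (57.9%) held the letters GAANNTTC, which read the same on both strands, against 7.86% of 32851 windows of all genes. Among the genes that fell, the window of Chordc1, a cochaperone of HSP90, held the most copies and is shown for them, at chr9:18292017-18292316 on the + strand, with its 2 copies in capitals. A match of letters is a description and not a binding site.
Chordc1: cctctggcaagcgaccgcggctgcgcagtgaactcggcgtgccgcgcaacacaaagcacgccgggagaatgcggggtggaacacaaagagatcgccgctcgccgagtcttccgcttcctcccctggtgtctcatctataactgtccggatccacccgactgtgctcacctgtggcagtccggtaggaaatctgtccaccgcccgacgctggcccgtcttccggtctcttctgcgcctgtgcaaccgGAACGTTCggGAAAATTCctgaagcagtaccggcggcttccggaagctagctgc
Chordc1 had 1609, 1777 and 1535 in ND saline and 1029, 1253 and 1379.5 in WD saline (log2 fold change -0.43, SE 0.17, adjusted p = 0.042). It did not pass without ND saline replicate 1 (-0.45, adjusted p = 7.52e-02), 2 (-0.38, adjusted p = 1.18e-01) or 3 (-0.48, adjusted p = 5.49e-02) or WD saline replicate 1 (-0.32, adjusted p = 1.83e-01) or 2 (-0.46, adjusted p = 6.47e-02), or with scaling by totals (-0.00, adjusted p = 9.95e-01).

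The clock genes stood in the same position. Of 19, 5 fell and 2 rose (3 and 6 with scaling by totals, and 3 fell without WD saline replicate 1 or 2). They make up 36.8% of the list, under the 53% of all genes tested that passed. For all 7 both ND AN1284 group means lay on the same side of ND saline as WD saline did. Nfil3, a repressor, had 2592, 2619.7 and 2557 in ND saline and 976, 933 and 779 in WD saline (log2 fold change -1.54, SE 0.18, adjusted p = 3.43e-06). Cry1, a repressor of the core loop, had 980.0, 826 and 592 in ND saline and 303, 307 and 219 in WD saline. Nr1d1, the repressor REV-ERB alpha, had 135, 402 and 464 in ND saline and 1117, 1140.2 and 1242 in WD saline (log2 fold change 1.99, SE 0.31, adjusted p = 6.20e-05). Against the ND livers given AN1284 the log2 fold change of Nr1d1 was -0.67, adjusted p = 4.84e-02, and 7 of the 19 genes fell and none rose.

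**Figure D4:**
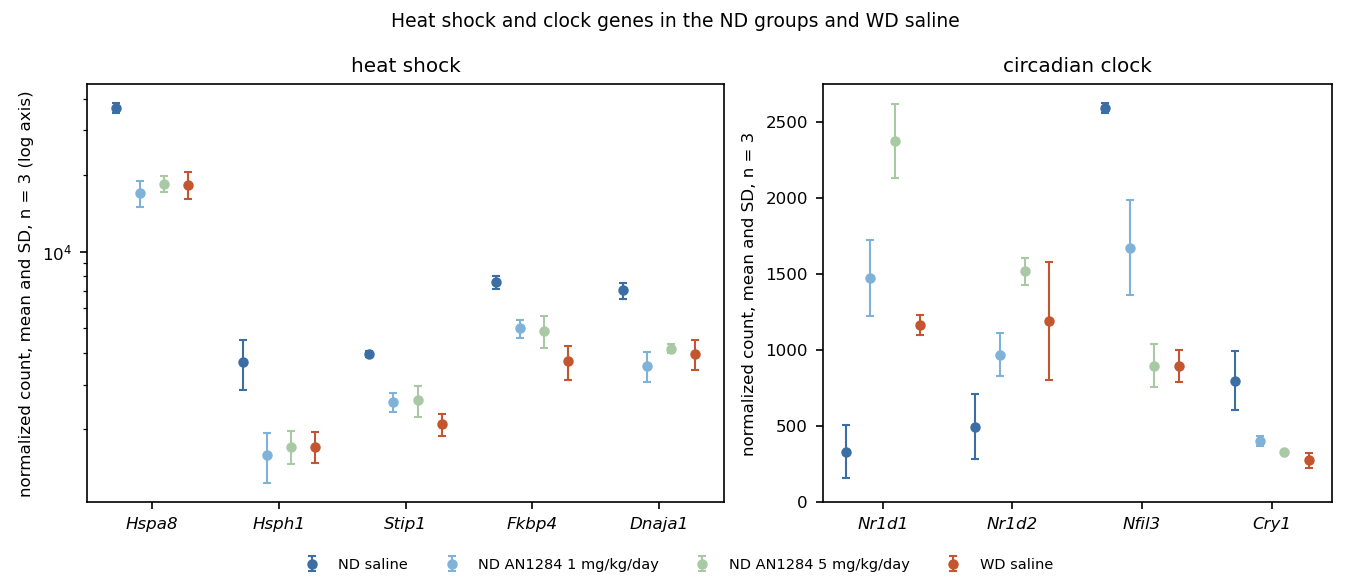
Mean normalized count of 5 heat shock genes (left, log axis) and 4 clock genes (right) in ND saline, ND AN1284 1 mg/kg/day, ND AN1284 5 mg/kg/day and WD saline livers, with bars of 1 SD (n = 3 each). In all 5 heat shock genes and in Nfil3 and Cry1 both ND AN1284 groups lie below ND saline, as WD saline does, and in Nr1d1 and Nr1d2 above it. Genes of the plot were chosen after their values were seen.

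Of 22 immediate early genes 10 rose and 4 fell (14 and 2 with scaling by totals). Klf6 had 355, 256 and 220.0 in ND saline and 1362, 1305 and 1625 in WD saline (log2 fold change 2.39, SE 0.21, adjusted p = 1.07e-07). Egr2, a factor of growth and immune responses, had 2.56, 1.32 and 7.59 in ND saline and 85.4, 58.5 and 65.5 in WD saline. Zfp36, which destabilizes cytokine mRNAs, had 2809.6, 3781 and 4551 in ND saline and 2179, 2156 and 1859 in WD saline (log2 fold change -0.82, SE 0.22, adjusted p = 4.87e-03). Klf6 and Egr2 were higher and Zfp36 lower in every WD liver. Of the 10 that rose 5 had both ND AN1284 means above ND saline too, and of the 4 that fell 3 had both below it.

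Structural genes rose broadly. Of 53 keratins, tubulins and actin-binding proteins 41 rose and 4 fell (46 and 1 with scaling by totals, median 1.01), and 40 rose and 2 fell against the ND livers given AN1284. Tubb6 had 147, 100.1 and 140.4 in ND saline and 847, 726 and 750.1 in WD saline (log2 fold change 2.59, SE 0.23, adjusted p = 1.38e-07). Synpo, synaptopodin, had 146, 133 and 156 in ND saline and 706, 874 and 889 in WD saline. Sptan1, the spectrin of the cell cortex, had 2647, 2568 and 2569.5 in ND saline and 5516, 5084 and 5259 in WD saline. The livers of the diets were far apart in these and close together within a diet. Tuba4a went the other way with 6795, 5488 and 6775 in ND saline and 2916, 3071 and 2673 in WD saline (log2 fold change -1.13, SE 0.14, adjusted p = 5.04e-06). Without ND saline replicate 2 the number of members falling was 2. Tubulins are close paralogs and may share reads.

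Of 19 annexins and S100 proteins, which bind calcium and membranes, 12 rose and 2 fell (15 and 1 with scaling by totals). Anxa2 had 381, 262 and 382 in ND saline and 4937, 5629 and 5387 in WD saline (log2 fold change 3.98, SE 0.24, adjusted p = 4.79e-09). Anxa5 had 3134, 2321 and 3417 in ND saline and 9629, 12238 and 13349 in WD saline. S100a11, a partner of annexins, had 236, 117 and 267 in ND saline and 1532, 1752 and 1694 in WD saline. They were higher in every WD liver, while Anxa6 had 3641, 3499.5 and 3494 in ND saline and 2999, 3402 and 3288 in WD saline, with a log2 fold change of -0.14, SE 0.09, adjusted p = 0.225 that turned with scaling by totals (0.30, adjusted p = 8.79e-03). S100a1, best known from muscle, fell from 3225 ± 968 to 1355 ± 193.

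Of 32 tight and adherens junction genes 10 rose and 4 fell, where 28.1 and 25% of all genes tested did, and 22 rose and 2 fell with scaling by totals. Gjb1, connexin 32 of the hepatocyte, had 22158, 19616 and 25237 in ND saline and 8339, 10441 and 8536 in WD saline (log2 fold change -1.29, SE 0.12, adjusted p = 2.20e-07). Gja1, connexin 43 of many other cells, had 106, 103 and 96.1 in ND saline and 299.9, 251 and 336 in WD saline (log2 fold change 1.52, SE 0.19, adjusted p = 4.03e-06). Dsp, desmoplakin, had 1662, 1659.5 and 1808 in ND saline and 4346, 3475 and 4094 in WD saline. The 2 connexins moved apart, without overlap between the diets. Lysosomal genes rose, 21 of 42 with 4 falling (34 and 0 with scaling by totals, and 2 falling without WD saline replicate 3). In this list 59.5% passed, against 53% of all genes tested. Lipa, the lysosomal acid lipase, had 7760.5, 7558 and 7698 in ND saline and 12149, 13039 and 14550.1 in WD saline (log2 fold change 0.78, SE 0.10, adjusted p = 4.70e-06). Lamp2, a membrane protein of the lysosome, had 15314, 19548 and 16205 in ND saline and 13135, 13325 and 15429 in WD saline and did not pass (log2 fold change -0.28, SE 0.14, adjusted p = 0.0924).

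Nrg1 and Hgf, growth factors, rose while Egfr, a receptor of the hepatocyte, fell. Nrg1, a ligand of the receptors ERBB3 and ERBB4, had 8.94, 7.90 and 16.4 in ND saline and 406, 321 and 361 in WD saline (log2 fold change 4.97, SE 0.36, adjusted p = 1.83e-08). Hgf, which acts on hepatocytes through the receptor MET, had 77.9, 103 and 84.7 in ND saline and 362, 251 and 379 in WD saline (log2 fold change 1.88, SE 0.25, adjusted p = 1.23e-05). Egfr, which binds EGF, had 17321, 17432 and 28263 in ND saline and 7269, 5615 and 6379 in WD saline (log2 fold change -1.68, SE 0.34, adjusted p = 6.41e-04). None of the 3 overlapped between the diets. Errfi1, the feedback inhibitor of the receptor, also fell, from 36655 ± 6268 to 19582 ± 1598. Of 25 genes of the EGF, HGF and FGF families 9 rose and 5 fell (16 and 3 with scaling by totals). Their share passing, 56%, was near the 53% of all genes tested.

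Targets of YAP and TEAD, which respond to cell spreading and growth, rose in 16 of 22 cases and fell in none (1 fell without ND saline replicate 1). Myof, myoferlin, had 60.05, 72.4 and 68.3 in ND saline and 601, 508 and 541 in WD saline (log2 fold change 3.02, SE 0.29, adjusted p = 3.88e-07). Ajuba, a LIM protein, had 119, 109 and 106 in ND saline and 355, 519 and 498 in WD saline. Wwtr1, which encodes the YAP partner TAZ, had 404, 545 and 541 in ND saline and 1168, 1122 and 1427 in WD saline (log2 fold change 1.32, SE 0.14, adjusted p = 9.97e-07). These rose in every WD liver, whereas Yap1 had 1908, 2277 and 1684 in ND saline and 1924, 2039 and 2087 in WD saline and did not pass (log2 fold change 0.05, SE 0.10, adjusted p = 0.659).

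Genes of DNA replication and mitosis rose in 32 of 38 cases and fell in none, with a median log2 fold change of 2.21. Bub1, of the spindle checkpoint, had 2.56, 2.63 and 2.53 in ND saline and 32.998, 40.4 and 35.5 in WD saline (log2 fold change 3.38, SE 0.41, adjusted p = 4.30e-06). Cenpe, a kinetochore motor, had 11.5, 5.27 and 10.1 in ND saline and 72.8, 111 and 131 in WD saline (log2 fold change 3.43, SE 0.41, adjusted p = 2.90e-06). Mcm2, of the replicative helicase, had 109, 124 and 148 in ND saline and 330.0, 311 and 308 in WD saline. The lowest WD liver was above the highest ND liver in each. The 6 that did not pass included Pcna, the replication clamp, with 506, 481 and 518 in ND saline and 433, 546 and 504 in WD saline (log2 fold change -0.03, SE 0.12, adjusted p = 0.86, and 0.40, adjusted p = 1.74e-02 with scaling by totals), and Mcm7, another helicase subunit, with 389.7, 387 and 431 in ND saline and 341, 369 and 346 in WD saline (log2 fold change -0.19, SE 0.10, adjusted p = 0.108).

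Promoters of mitotic genes are known for CCAAT boxes, bound by the factor NF-Y. Windows of RefSeq were found for 30 of the 38 genes, and of these 33 windows 27 (81.8%) held CCAAT on either strand, against 37.4% of 32851 windows of all genes. The share was also high, 84.2%, for 19 windows of cholesterol synthesis genes, most of which fell. It was 81.5% for 27 windows of endoplasmic reticulum stress genes and 76.2% for 21 windows of clock genes. For heat shock genes it was 52.6% and for cytosolic ribosome genes 31.3%. Among the genes that rose, the windows of Top2a (chr11:99024140-99024439, - strand), the topoisomerase that untangles chromosomes, and Ube2c (chr2:164769679-164769978, + strand), which marks cyclins for breakdown, held the most copies, 6 each. They are shown to make the repeats visible, with CCAAT and its reverse complement ATTGG in capitals.
Top2a: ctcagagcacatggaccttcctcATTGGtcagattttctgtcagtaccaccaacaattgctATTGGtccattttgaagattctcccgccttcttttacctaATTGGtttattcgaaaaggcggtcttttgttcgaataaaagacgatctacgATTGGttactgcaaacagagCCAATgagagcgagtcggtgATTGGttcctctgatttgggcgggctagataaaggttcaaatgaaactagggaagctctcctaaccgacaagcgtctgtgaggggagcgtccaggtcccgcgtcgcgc
Ube2c: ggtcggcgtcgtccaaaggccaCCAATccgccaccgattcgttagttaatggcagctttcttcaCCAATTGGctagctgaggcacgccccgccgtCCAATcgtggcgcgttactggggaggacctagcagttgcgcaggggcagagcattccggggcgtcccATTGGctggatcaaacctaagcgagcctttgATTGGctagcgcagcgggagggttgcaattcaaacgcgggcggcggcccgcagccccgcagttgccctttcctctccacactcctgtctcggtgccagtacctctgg
Top2a had 76.7, 30.3 and 48.1 in ND saline and 198, 306 and 335 in WD saline (log2 fold change 2.48, SE 0.52, adjusted p = 8.26e-04). Ube2c had 12.8, 21.1 and 22.8 in ND saline and 55.3, 110.4 and 134 in WD saline (log2 fold change 2.29, SE 0.50, adjusted p = 1.07e-03).

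Of 26 p53 targets and cell cycle inhibitors 10 rose and 2 fell (18 and 1 with scaling by totals), and 1 fell without ND saline replicate 2 or 3 or WD saline replicate 1. In this list 46.2% passed, against 53% of all genes tested. Tnfrsf10b, a death receptor, had 19.2, 21.1 and 11.4 in ND saline and 111, 95.6 and 89.9 in WD saline (log2 fold change 2.49, SE 0.29, adjusted p = 2.08e-06). Plk2, a kinase induced by p53, had 207, 234 and 171 in ND saline and 535, 462 and 484 in WD saline. Gadd45a, a stress sensor, had 35.8, 22.4 and 32.9 in ND saline and 101, 103 and 82.8 in WD saline. These were higher in every WD liver. Of 21 fetal liver and imprinted growth genes 12 rose and 2 fell. Beside H19, Scd2, a desaturase of the young liver, had 185, 165 and 147 in ND saline and 1627, 1224 and 1248 in WD saline (log2 fold change 3.03, SE 0.26, adjusted p = 1.16e-07). Igf2bp2, an RNA-binding protein, had 48.6, 42.1 and 78.4 in ND saline and 289, 203 and 170.4 in WD saline. Slc38a4, an amino acid carrier imprinted in the mouse, had 28639, 36609 and 31288 in ND saline and 16014, 17765 and 18589 in WD saline and was 1 of the 2 that fell.

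**Figure D5:**
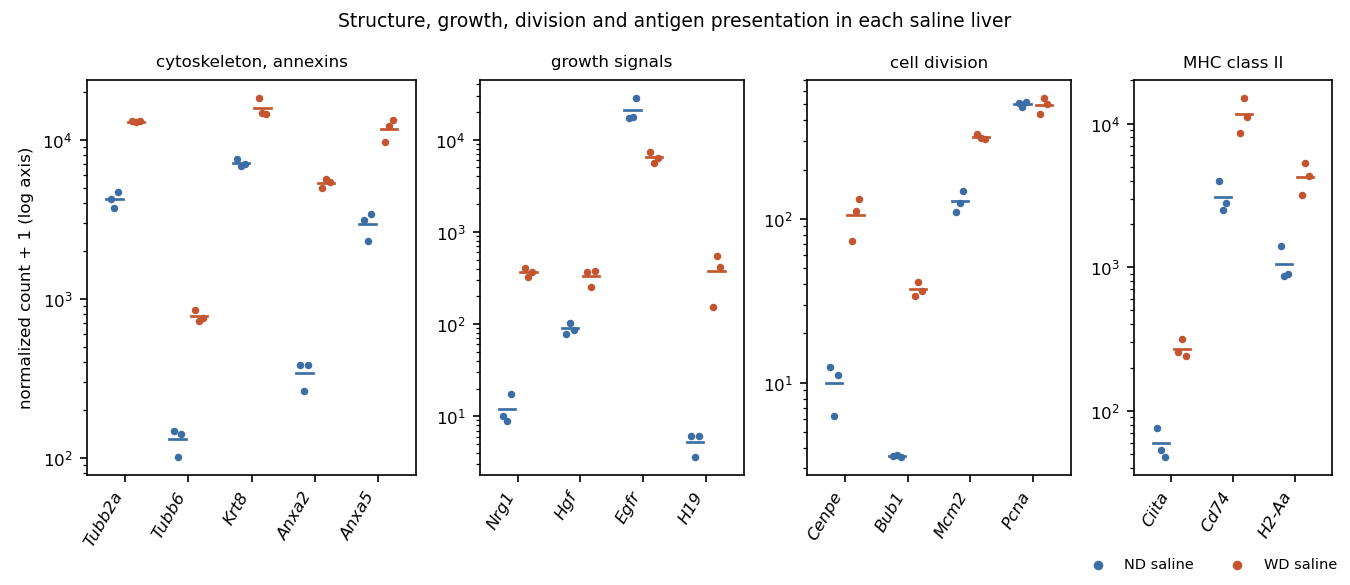
Normalized count + 1 (log axis) in each ND saline (blue) and WD saline (orange) liver, 1 point per mouse, with lines at the group means, for genes of structure, growth signals, cell division and MHC class II. The WD livers lie above the ND livers in 14 of the 16 genes, below them for Egfr and among them for Pcna. Genes of the plot were chosen after their values were seen.

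Genes of antigen presentation rose. Of 12 genes of MHC class II 11 rose and none fell, and 9 rose against the ND livers given AN1284. Ciita, the master regulator of the class, had 75.4, 52.7 and 46.8 in ND saline and 255, 316 and 238 in WD saline (log2 fold change 2.21, SE 0.32, adjusted p = 2.10e-05). H2-Aa, a chain of the molecule itself, had 1395, 863 and 889 in ND saline and 3194, 5305 and 4298 in WD saline. Ctss, the protease that frees its groove, had 1223, 655 and 826 in ND saline and 3767, 3604 and 3115 in WD saline. The WD livers were above the ND livers in all 3. Interferon-stimulated genes were less uniform, with 13 of 34 higher and 3 lower (24 and 1 with scaling by totals, 1 lower without WD saline replicate 3), and 8 higher against the ND livers given AN1284. Of these 34 genes 47.1% passed, against 53% of all genes tested. Ifit2, an antiviral gene, had 81.8, 83.0 and 65.8 in ND saline and 461, 352 and 397 in WD saline (log2 fold change 2.38, SE 0.30, adjusted p = 7.20e-06). Ifitm3, which blocks the entry of viruses, had 13854, 11795 and 10468 in ND saline and 6506, 7248 and 5369.5 in WD saline (log2 fold change -0.92, SE 0.15, adjusted p = 6.66e-05).

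Markers of other cell types moved along with these groups, and their part in the results above was not tested. All 18 monocyte and lipid-associated macrophage markers rose, their summed normalized counts being 4624 to 7306 in ND saline and 24236 to 26952 in WD saline. Trem2, a lipid receptor of such macrophages, had 8.94, 5.27 and 10.1 in ND saline and 234, 202 and 198 in WD saline. Clec7a, the receptor dectin-1, had 85.6, 36.9 and 62.0 in ND saline and 1117, 672 and 647 in WD saline. Every WD liver was above every ND liver in both. Of 11 markers of resident Kupffer cells 6 rose and 2 fell (7 and 0 with scaling by totals, summed 4944 to 7962 and 8958 to 21364). Cd5l, which Kupffer cells secrete, had 1793, 1112 and 1062 in ND saline and 9756, 6251 and 4184 in WD saline (log2 fold change 2.30, SE 0.32, adjusted p = 2.61e-05). Marco, a scavenger receptor, had 845, 523 and 585 in ND saline and 1423, 282 and 233 in WD saline and did not pass (log2 fold change -0.49, SE 0.70, adjusted p = 0.579). WD saline replicate 1 alone was above the ND livers in Marco, and without that library 3 Kupffer markers rose. Fcna, which fell, had a log2 fold change of -0.86, SE 0.30, adjusted p = 0.0256 and did not pass without ND saline replicate 1 (-0.62, adjusted p = 1.28e-01) or WD saline replicate 2 (-0.69, adjusted p = 1.03e-01) or 3 (-0.61, adjusted p = 1.28e-01). The number of Kupffer markers falling was 0 in those 3 cases and 1 without ND saline replicate 2 or 3.

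Of 12 neutrophil markers 2 rose (5 with scaling by totals, summed 79.0 to 221 and 232 to 964, with Ly6g at 0 in all 6 livers). Their share passing, 16.7%, was under the 53% of all genes tested. S100a9 had 37.1, 17.1 and 5.06 in ND saline and 241, 37.9 and 63.9 in WD saline (log2 fold change 2.40, SE 0.97, adjusted p = 0.048). WD saline replicate 1 was highest in it, as it was in Lcn2 and Cd14. S100a9 did not pass without ND saline replicate 2 (2.48, adjusted p = 7.73e-02) or 3 (1.69, adjusted p = 1.88e-01) or WD saline replicate 1 (1.64, adjusted p = 2.05e-01) or 3 (2.59, adjusted p = 7.21e-02), cases in which 1 neutrophil marker rose, and 4 rose without WD saline replicate 2. Of 12 dendritic cell markers 8 rose and none fell (summed 361 to 441 and 1104 to 1316). Wdfy4, of antigen cross-presentation, had 74.1, 63.2 and 73.3 in ND saline and 543, 326 and 288 in WD saline. Clec9a, of the cross-presenting subset, had 35.8, 31.6 and 54.4 in ND saline and 44.6, 42.8 and 25.2 in WD saline and did not pass (log2 fold change -0.11, SE 0.39, adjusted p = 0.821).

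Lymphocyte markers mostly did not pass. Of 24 of T and NK cells 2 rose and 2 fell, with a median log2 fold change of 0.77, and 12 rose and 2 fell with scaling by totals (summed 589 to 769 and 519 to 937). The T and NK share passing, 16.7%, was under the 53% of all genes tested. Zap70, a kinase of the T cell receptor, had 239, 266 and 238 in ND saline and 49.5, 55.2 and 31.5 in WD saline (log2 fold change -2.46, SE 0.22, adjusted p = 1.37e-07). Cd4 had 132, 88.2 and 116 in ND saline and 25.2, 57.7 and 34.7 in WD saline (log2 fold change -1.55, SE 0.27, adjusted p = 1.15e-04). Cd3e, a chain of the receptor itself, had 28.1, 17.1 and 30.3 in ND saline and 19.4, 53.6 and 46.5 in WD saline (log2 fold change 0.56, SE 0.53, adjusted p = 0.387). The livers overlapped in Cd3e and not in Zap70 or Cd4. The number rising was 5 without WD saline replicate 1, 1 without ND saline replicate 2 or WD saline replicate 2 or 3, and 0 of 24 against the ND livers given AN1284. Of 8 B and plasma cell markers 2 rose (summed 179 to 293 and 237 to 368), and 1 without ND saline replicate 2 or WD saline replicate 1. For B and plasma cells the share passing, 25%, was also under the 53% of all genes tested. Cd22, which damps the B cell receptor, had 21.7, 9.22 and 34.1 in ND saline and 116, 101 and 68.6 in WD saline.

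Many markers of endothelium, stellate cells and bile duct cells rose. Of 14 sinusoidal endothelial markers 10 rose and none fell (summed 7271 to 7809 and 10413 to 15431), and 6 rose against the ND livers given AN1284. Stab2, a scavenger receptor, had 559.6, 564 and 584 in ND saline and 1782, 1099 and 1239 in WD saline (log2 fold change 1.24, SE 0.16, adjusted p = 8.13e-06). Dnase1l3, a secreted nuclease, had 1089, 968 and 995 in ND saline and 1177, 884 and 804 in WD saline and did not pass (log2 fold change -0.11, SE 0.19, adjusted p = 0.648). Of 13 other vascular endothelial markers 12 rose (summed 3626 to 4390.1 and 7146 to 9989.6). Vcam1, which holds leukocytes to the vessel wall, had 445, 296 and 405 in ND saline and 1528, 1406 and 1428 in WD saline. Of 14 hepatic stellate cell and myofibroblast markers 9 rose and none fell (summed 5988 to 9823 and 11502 to 11971). Acta2, smooth muscle actin, was among the 5 that did not pass (log2 fold change 0.92, SE 0.40, adjusted p = 0.058). Lrat, which stores retinol as esters in stellate cells, had 349, 232 and 216 in ND saline and 1200.5, 1012 and 823 in WD saline (log2 fold change 1.94, SE 0.24, adjusted p = 6.80e-06). Of 13 cholangiocyte markers 9 rose and none fell (summed 2680.3 to 3892 and 8320.3 to 14426). Spp1, osteopontin, which macrophages make as well, had 2419, 1453 and 1884 in ND saline and 6450.1, 10043 and 11193 in WD saline. So several-fold rises of some markers of a cell type stood beside members of the same list that did not pass.

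Hepatocyte markers fell in 12 of 14 cases and rose in 1 (summed 3808152 to 4040313 and 1715476 to 2089382). Tat, which starts tyrosine breakdown, had 98387, 124376 and 112134 in ND saline and 10931, 13741 and 13452 in WD saline (log2 fold change -3.14, SE 0.26, adjusted p = 6.21e-08). Apob, the protein of VLDL and the riser, had 117003, 162415 and 114122 in ND saline and 269674, 178795 and 217098 in WD saline (log2 fold change 0.76, SE 0.20, adjusted p = 4.08e-03), and 0.28, adjusted p = 2.07e-01 against the ND livers given AN1284. Between the means, Tat was 8.78-fold lower and Apob 1.69-fold higher on the WD. Tat stood at 111632 ± 13002 in ND saline and 12708 ± 1546 in WD saline. In the ND livers given AN1284 at 1 and 5 mg/kg/day it was 26723 ± 7490 and 30730 ± 8820, far below ND saline. Of 3 adipocyte markers tested, Fabp4 and Cfd, adipsin, rose, while the third, Pck1, which hepatocytes also express, fell. Retn, resistin, was at 0 in all 6 livers. Cfd had 28.1, 15.8 and 98.6 in ND saline and 529, 805 and 229.5 in WD saline (log2 fold change 3.66, SE 1.10, adjusted p = 0.0123), and did not pass against the ND livers given AN1284 (2.35, adjusted p = 5.85e-02). Fabp4, which macrophages share with adipocytes, had 235, 134 and 209.9 in ND saline and 1613, 1321 and 1477 in WD saline. Of 2 pancreatic acinar markers tested both fell. Of 7 erythroid and blood genes 1 fell (4 rose and 1 fell with scaling by totals, and 1 rose without WD saline replicate 2), namely Alas2, the erythroid form of the first haem synthesis enzyme, from 4341 ± 347 to 1658 ± 272. In this list 14.3% passed, against 53% of all genes tested. The lists of matrix genes and of lipid droplet, fatty acid and triglyceride genes, kept out of the named genes, had 75 of 110 and 37 of 79 members higher, and 7 and 14 lower (89 and 52 higher, 4 and 4 lower with scaling by totals).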

How the data were processed

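Liver RNA of 19 mice in 6 groups was sequenced by the authors, of which the 3 ND saline and 3 WD saline libraries (23326800 to 29638296 counted reads) were compared. Per the labels and the submitters' processing notes, poly-A selected, stranded libraries were sequenced in a pair of NextSeq runs (which library was in which run is not given in the sources used here), trimmed with cutadapt 1.18, aligned to GRCm38 with TopHat2 2.1.1, counted per gene with HTSeq 0.6.0 and normalized with DESeq2 1.22.1. The deposited table gives read counts and other values, normalized counts, that the authors made by dividing them by 1 size factor per library, and the authors' own comparisons, which were not used. A question mark stands for 6252 of 54838 genes in every library and 20433 genes have a normalized value.

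Negative binomial models were not run. The test was limma 3.58.1 (trend and robust variance, R 4.3.3) on log2(normalized count + 1), with all 6 groups in 1 model and Benjamini-Hochberg adjustment over 14743 genes that reached 10 normalized counts in at least 3 libraries. It was tested on simulated data. Precision is limited by 3 mice per group. Alternatives were limma voom on the reads, other filters, scaling by totals, a pseudocount of 5, the saline libraries alone, the replicate number as a block, each library left out, and, chosen after seeing the data, the ND livers given AN1284 as controls, which differ from WD saline also in the drug.

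Gene lists, members and the rule for named genes were chosen with earlier results of these data known. Among genes that passed, had no provisional symbol, were not in the matrix or lipid lists, had 200 normalized counts in the higher group and no overlap between the diets, the rule took the 12 largest rises and falls by fold change and the 8 largest by normalized count. From each list it took up to 4 members that passed, by p, and 2 others, by level. Not all of these are named, and the results of some genes are not reported here. Acta2, Chordc1, Cyp2a5, Nr1d2, Retn, Ly6g, Top2a and Ube2c lie outside the rule, as do the genes of the closing section that say so, and were chosen after their values were seen, as were the genes drawn in the figures. No list was tested as a set. Promoter windows came from RefSeq (GRCm38.p6).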

Additional observations from a re-analysis of the deposited data

How the results depend on the processing

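The counts of genes, 4136 higher and 3684 lower, stayed within 1.5 times under limma voom (4024 and 3650), no filter (4378 and 3717), a minimum of 50 (3386 and 3293), a pseudocount of 5 (4152 and 3690) and the saline libraries alone (3932 and 3408). Leaving out 1 library gave 3583 to 4006 higher and 2930 to 3603 lower. Scaling by library totals gave 7581 higher and 1350 lower, and a mean normalized count above 150 gave 2232 higher (2836 lower), as fewer genes were tested. Against the ND livers given AN1284, an alternative chosen after seeing the data, there were 3547 and 3019. The tests of edgeR and DESeq2 and the TMM scaling were not run, and limma voom was the only test of the reads.

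With the replicate number of the labels as a replicate block, 3719 rose and 3095 fell. Deviations of same-numbered livers from their group means correlated at -0.06, -0.11 and 0.03, and only replicate 3 of the 3 correlated best with its own number. Such correlations cannot tell whether livers of the same number shared a cage or a sequencing run, which is not given. The block changed the call of 4 of the 197 named genes, which here and below leave out Acta2.

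With scaling by totals, which shifted the median of all genes, Selenop turned to a log2 fold change of 0.39, Atp5b to 0.33, Anxa6 to 0.30 and Pcna to 0.40. Against the ND livers given AN1284, Hspa8 turned to 0.051, Chordc1 to 0.60, Nr1d1 to -0.67 and Nr1d2 to -0.068.

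Of the named genes, 4 reversed with scaling by totals, and 5 others lost and 3 others gained their call. Against the ND livers given AN1284 4 reversed, and 12 others lost and 2 others gained their call. Of the 118 counts over gene lists (rises and falls of 59 lists), 58 moved by over 1.5 times with totals and 33 against the ND livers given AN1284. The cause was not tested. Depth limits genes with few counts, and 3 mice per group limit the rest.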

Other observations

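The genes of this paragraph lie outside the lists described above and were chosen after their values were seen. Osbpl3, an oxysterol-binding protein, had 107, 80.3 and 135 in ND saline and 2557, 2164 and 2357 in WD saline (log2 fold change 4.47, SE 0.33, adjusted p = 2.69e-08). Srxn1, which repairs oxidized peroxiredoxins, had 1129.5, 1044 and 1010.4 in ND saline and 5509, 3823 and 4634 in WD saline (log2 fold change 2.12, SE 0.14, adjusted p = 1.09e-08). Ubd, a ubiquitin-like modifier induced by cytokines, had 54.9, 58.0 and 22.8 in ND saline and 354, 1256 and 974 in WD saline, with WD saline replicate 1 lowest of its group. Among the falls, Got1, the cytosolic aspartate aminotransferase, had 8649.8, 11166 and 10280.5 in ND saline and 1167, 1248 and 1425 in WD saline (log2 fold change -2.97, SE 0.24, adjusted p = 7.49e-08). Lifr, the receptor of leukemia inhibitory factor, had 8912, 9483 and 8023 in ND saline and 2033, 2100.0 and 2038 in WD saline, and Hsd11b1, which regenerates active glucocorticoid, 21186, 17283 and 15407 in ND saline and 3551, 5084 and 3276 in WD saline. Alas1, the first enzyme of haem synthesis in the liver, had 29761, 17898 and 20212 in ND saline and 4428, 4858 and 7350.0 in WD saline (log2 fold change -2.03, SE 0.39, adjusted p = 4.68e-04), and did not pass against the ND livers given AN1284 (-0.43, adjusted p = 3.23e-01). Ces3b, a carboxylesterase with close paralogs, had 12993, 14097 and 10972 in ND saline and 1034, 2008 and 1045 in WD saline.

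While genes of the cell division list rose, 2 genes named for replication and centrioles fell (also chosen after their values were seen). Mcm10, a replication initiation factor, had 3871, 2545 and 2980.5 in ND saline and 367, 522 and 419.6 in WD saline (log2 fold change -2.83, SE 0.26, adjusted p = 2.29e-07), and Tedc2, a centriole protein, 2803, 3289 and 3271 in ND saline and 439, 540.5 and 431 in WD saline (log2 fold change -2.73, SE 0.16, adjusted p = 3.30e-09).

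RNA classes of the annotation were split between rises and falls as follows. Of 13317 protein-coding genes tested, 4028 rose and 3198 fell, with a median log2 fold change of 0.06. Of 368 lincRNA genes 38 rose and 135 fell, and of 328 antisense genes 19 rose and 119 fell, with medians of -0.56 and -0.62. With scaling by totals the numbers were 63 and 81 for lincRNA and 36 and 69 for antisense genes, against 7393 and 1070 for protein-coding genes. The difference between classes was not tested.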
